A study of Mus musculus with 2 samples.

Results

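Late-numbered microRNA (miRNA) genes, those whose symbol is Mir followed by a number of at least 1000, were described in mouse adrenal gland. They were chosen by symbol alone, without use of any count, from the GENCODE M21 annotation of the genes in the deposited tables. Late-numbered genes inside the Sfmbt2 gene or in the imprinted Dlk1-Dio3 cluster of chromosome 12 were set aside. This removed 0 and 9 genes, and the 9 span chr12:109544541-109747960 (mm10). This left 640 of the 2202 miRNA genes in the tables. The libraries came from adrenal glands of 2 male B6CASTF1/J mice aged 4 days, a first-generation hybrid of a laboratory strain and a wild-derived strain, with no treatment named. Replicates 1 and 2 were males numbered 3 and 4, but both entries carry the same donor label, so the animals are separate only by those numbers. With 1 group, no conditions were compared. Each animal gave 1 library, so a difference due to the animal and one due to its dissection or library cannot be told apart.

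A miRNA is cut from a hairpin in a longer transcript, first in the nucleus by Drosha with its partner Dgcr8 and then in the cytoplasm by Dicer. Its seed, the bases near its 5′ end, pairs with target messenger RNAs. Numbers are given to miRNAs in order of registration, so high numbers mostly mark genes found by deep sequencing, among them short introns that form hairpins after splicing (mirtrons) and pieces of other structured small RNAs such as box H/ACA RNAs and transfer RNAs.

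Replicate 1 gave 3961630 counts on the sense strand of miRNA genes and replicate 2 gave 1686822. Levels are these counts scaled to a library total of 1000000 (CPM), so a single count was worth 0.252 CPM in replicate 1 and 0.593 CPM in replicate 2. Detected means 10 or more counts for the precursor gene in each of the 2 libraries. Among miRNAs known from other tissues, the liver miRNA gene Mir122 held 0.130% of counts in replicate 1 and 2.06% in replicate 2, and 3 erythroid genes together held 0.725% and 0.0595%. Of the erythroid genes, Mir486 went the other way, at 12.4 and 19.6 CPM. Of the striated muscle list, 3 of 10 genes were detected, and the list held 0.115% and 0.270%. Both neuroendocrine (7 of 7 genes) and adrenocortical (6 of 6) marker lists were detected in full, at 3.69% and 4.70%, and at 2.44% and 5.05%. Mir21a alone gave 17010 and 39571 of the 24428.1 and 50482.5 CPM of the adrenocortical list. Mir375 alone gave 31129 and 42377 of the 36906.8 and 47025.7 CPM of the neuroendocrine list. In that list Mir7-1 and Mir96 were also higher in replicate 2, while Mir182, Mir183, Mir7-2 and Mir7b were lower there. Mir206 gave 1130 and 2646 of the 1146 and 2699 CPM of the striated muscle list. The part of these differences in the values below was not tested.

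The mature sequences below belong to 9 of the 14 highest genes, chosen because the results on levels and on differences between the libraries turn on them. Mir5099, the second highest, has no entry. They are the mature forms in RefSeq (build GRCm38.p6), with the seed, bases 2 to 8, in capitals. A count belongs to a precursor, so reads of its 5p and 3p arms were not told apart.
miR-1839-5p: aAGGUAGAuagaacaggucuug
miR-1983: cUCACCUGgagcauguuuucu
miR-1981-5p: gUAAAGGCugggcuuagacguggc
miR-1981-3p: cAUCUAACccuggccuuugac
miR-1843a-5p: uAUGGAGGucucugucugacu
miR-1843b-5p: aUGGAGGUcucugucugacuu
miR-1306-5p: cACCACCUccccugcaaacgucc
miR-1306-3p: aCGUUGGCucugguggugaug
miR-3068-5p: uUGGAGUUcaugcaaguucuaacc
miR-3068-3p: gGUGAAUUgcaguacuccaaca
miR-6236: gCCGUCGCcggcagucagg
miR-1247-5p: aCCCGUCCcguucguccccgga
miR-1247-3p: cGGGAACGucgagacuggagc

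The sequences of Mir1843a and Mir1843b share 20 bases on the 5p arm, at positions 2 to 21 of the first and 1 to 20 of the second. The annotated seeds therefore lie 1 base apart on the same run. The 5p form of Mir1839 shares 6 bases with let-7g, at positions 2 to 7 against positions 3 to 8, so most of its seed is that of let-7 moved by 1 base.
miR-1839-5p, shared bases in capitals: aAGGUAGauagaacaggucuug
let-7g-5p, shared bases in capitals: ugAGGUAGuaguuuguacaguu
A mature form was found in RefSeq for 40 of the 44 detected genes, with 67 forms in all. Of these 40 genes, 4 share a seed with a miRNA gene numbered under 1000: Mir1983 with Mir412, Mir3102 with Mir702, Mir6240 with Mir330 and Mir3475 with Mir96.

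Few of the late-numbered genes were measured. Of the 640, 44 (6.88%) were detected, against 283 of 525 (53.9%) of the genes numbered under 1000 or named let-7, and 5 of 1021 with a provisional Gm name. No count at all was given to 317 of the 640 (49.5%) in either library, which allows up to 3 counts each, or 0.757 CPM in replicate 1 and 1.78 CPM in replicate 2. At least 1 count was present in both libraries for 192 genes and in a single library for 131. Of these 131, 100 had their counts in replicate 1 and 31 in replicate 2, the library with fewer counts.

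**Figure D1:**
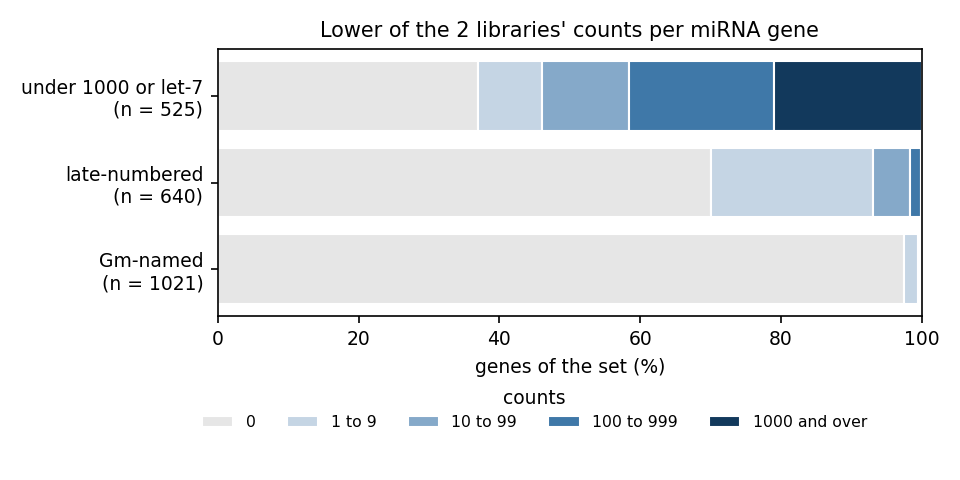
Share of genes (horizontal axis, %) by the lower of the 2 libraries' sense-strand counts, for genes numbered under 1000 or let-7, late-numbered genes and Gm-named genes. At least 10 counts in both libraries were reached by 53.9%, 6.88% and 5 of 1021 genes.

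Together the 640 genes received 12279 counts in replicate 1 and 5310 in replicate 2. This was 0.310% of miRNA counts in replicate 1 (exact Clopper-Pearson 95% interval 0.304 to 0.315%) and 0.315% in replicate 2 (0.306 to 0.323%), a mean of 0.312% ± 0.00343 (SD, n = 2). The intervals overlap. Detected late-numbered genes had a median of 11.6 CPM, against 360 CPM for detected genes under 1000 or let-7. The level reached 100 CPM for 9 of the late-numbered genes and 1000 CPM for 0 of them, against 198 and 91 of the lower-numbered genes. A run of 20 bases shared with another miRNA precursor was found in 7.81% of late-numbered and 39.4% of lower-numbered genes. Reads aligned to more than 1 locus were left out, and the effect of this on these comparisons was not tested.

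The counts were held by few genes. The highest gene, Mir1839, held 20.0% ± 0.947 (SD, n = 2) of the set's counts, the top 5 held 54.8% ± 0.853 and the top 10 held 73.4% ± 2.36. The top 5 were the same genes in both libraries, and 9 of the top 10 and 19 of the top 20 were shared. CPM is not divided by precursor length here. When it was, 9 of the top 10 by mean level stayed in the top 10.

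**Figure D2:**
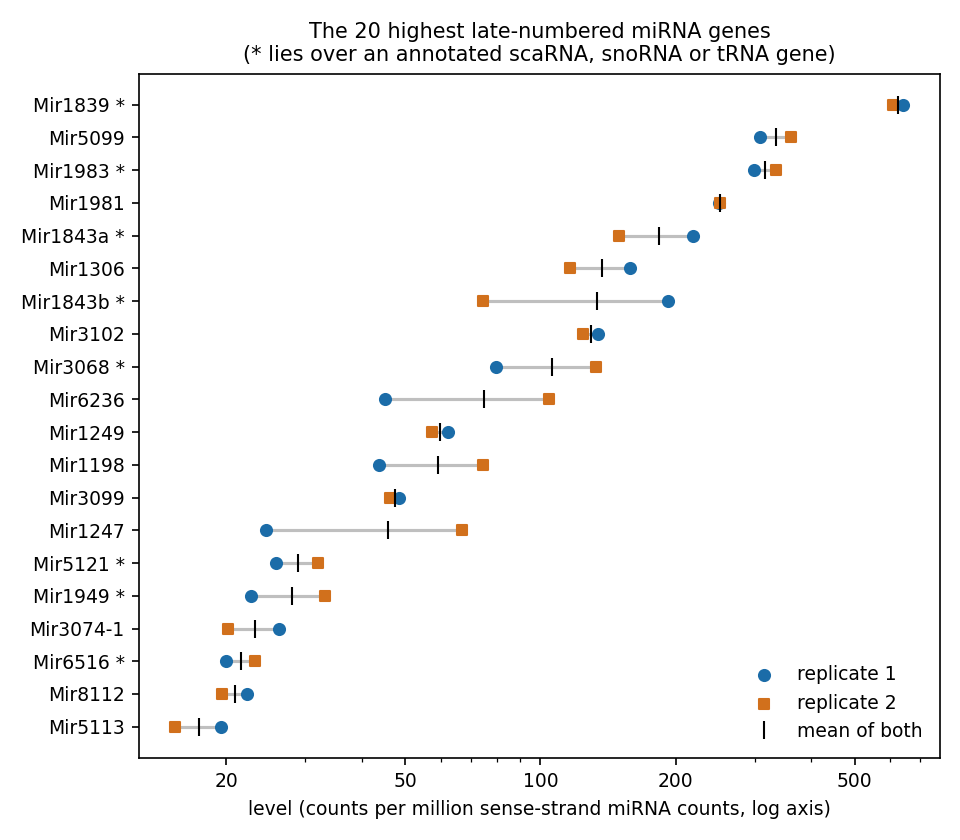
Level of the 20 highest late-numbered genes in replicate 1 (circles) and replicate 2 (squares) on a log axis of CPM, with the mean as a tick and an asterisk for genes over another annotated small RNA gene. Mir1839 lies highest in both libraries, and Mir1843b, Mir6236 and Mir1247 are the widest pairs.

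The scaRNA-linked genes led. Small Cajal body RNAs (scaRNAs) guide chemical changes in spliceosomal RNAs, and snoRNAs do so in ribosomal RNA. Mir1839 (chr7:81529916-81529988, plus strand, mm10) lies in a noncoding exon of the long noncoding RNA gene 2900076A07Rik, and the annotation also holds a scaRNA gene at its place. Replicates 1 and 2 gave it 2544 and 1029 counts, or 642 and 610 CPM (mean 626 ± 22.7, SD, n = 2). The libraries were close, at a log2 ratio of -0.07 (replicate 2 over replicate 1, as in all ratios here).

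Mir1843a (chr12:80391613-80391677, minus strand) lies in an intron of Dcaf5, a substrate receptor of a ubiquitin ligase, over Scarna3b. It had 866 and 252 counts, or 219 and 149 CPM. Its near copy Mir1843b (chr1:159340358-159340423, plus strand) lies in an intron of Cop1, a ubiquitin ligase gene, over Scarna3a. It had 762 and 126 counts, or 192 and 74.7 CPM. Both were higher in replicate 1. Since they share runs of at least 20 bases, a read that fits both would be set aside as aligning to more than 1 locus, and the counts of each are uncertain. Lower levels were found for Mir6516 in the snoRNA host gene Snhg20 (79 and 39 counts) and for Mir3069 over Scarna13 in Snhg10 (41 and 13 counts).

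Genes over a snoRNA or a transfer RNA were also among the leading ones. Mir1983 (chr13:21896918-21897049, minus strand) lies between genes over an isoleucine transfer RNA gene, n-TItat14, and had 1181 and 564 counts (298 and 334 CPM). The strand of n-TItat14 was not in the list used, so this overlap, unlike the others in this paragraph, was not matched by strand. Mir3068 (chr12:87437679-87437757, minus strand) lies in an intron of Alkbh1, a nucleic acid demethylase gene, over a snoRNA. It had 315 and 224 counts (79.5 and 133 CPM) and was higher in replicate 2. Mir5121 lies over Snord33 in Rpl13a, a ribosomal protein gene, with 102 and 54 counts. Mir1949 had 90 and 56 counts and Mir1291, over Snora34 in Kansl2, had 37 and 11.

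In all, 12 of the 640 genes lie over an annotated small RNA gene of another kind, and 10 of these 12 (83.3%) were detected, against 34 of the other 628 (5.41%). These 12 genes held 49.0% of the set's counts in replicate 1 and 44.6% in replicate 2 (mean 46.8% ± 3.12, SD, n = 2). Among the genes under 1000 or let-7, 2 of 525 had such an overlap and they held 0.0126% ± 0.00177 of that group's counts. Without the 12 genes, the share of all miRNA counts was 0.166% ± 0.0116. The counts do not tell a read cut as a miRNA from any other fragment of these RNAs. For Mir1839, Mir3068 and Mir1949 the overlapping scaRNA or snoRNA entry carries the symbol of the miRNA gene itself. Only RNA shorter than 30 nucleotides was sequenced, per the labels.

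Mirtron-like genes formed the next group. A gene was put here when both precursor ends lay within 5 bases of the ends of 1 annotated intron. This held for 20 of the 640 genes, against 1 of 525 under 1000 or let-7. Detected were 5 of the 20: Mir1981, Mir3102, Mir1224, Mir3547 and Mir6944. The 20 genes held 13.2% ± 0.287 (SD, n = 2) of the set's counts.

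Mir1981 (chr1:184822407-184822488, minus strand), an intron of Marc2, a mitochondrial reductase gene, had 990 and 423 counts, or 250 and 251 CPM. Mir3102 (chr7:100882306-100882409, minus strand) spans an intron of Arhgef17 that is kept as exon in a noncoding transcript, and had 533 and 210 counts, or 135 and 124 CPM. Both libraries gave nearly the same level for each of these 2 genes. Mir1224 in Vwa5b2 had 29 and 23 counts, Mir3547 in Baiap3, which acts in dense-core vesicle traffic, had 32 and 10, and Mir6944 in Dbn1, an actin-binding protein gene, had 15 and 13.

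The arms of the detected mirtron-like genes were set against the ends of introns. These genes were chosen for precursor ends near intron ends, so matching bases partly follow from that choice. All 5 of the 5p forms start with GU, the first bases of most introns, and 3 of 5 of the 3p forms end with AG, the last bases of most introns, with the additional inner pair of Mir3102 left out. The 3p forms of Mir1981 and Mir3102 end with other bases. The matching bases are shown in capitals for the 3 genes that match at both ends.
miR-1224-5p: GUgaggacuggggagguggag
miR-1224-3p: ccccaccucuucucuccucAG
miR-3547-5p: GUgggaagagggguggggcccggga
miR-3547-3p: ugagcaccaccccucucucAG
miR-6944-5p: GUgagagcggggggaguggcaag
miR-6944-3p: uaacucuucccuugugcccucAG

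At least 1 precursor end lay at a splice site in 230 of the 640 genes, and 208 of those 230 had numbers from 6000 to below 8000. Detection was 9 of 230 (3.91%) with such an end and 35 of 410 (8.54%) without. Within that number range it was 2 of 208 and 9 of 179. In lower ranges the order was the other way, with 2 of 5 against 13 of 77 below 2000, 4 of 13 against 8 of 75 from 2000 to below 4000, and 1 of 4 against 3 of 47 from 4000 to below 6000.

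By number, detection was 15 of 82 (18.3%) below 2000, 12 of 88 (13.6%) from 2000, 4 of 51 (7.84%) from 4000, 11 of 387 (2.84%) from 6000 and 2 of 32 (6.25%) from 8000 upward. The class below 2000 held 0.191% ± 0.0109 (SD, n = 2) of all miRNA counts and the large class from 6000 to below 8000 held 0.0296% ± 0.00579. The highest gene was Mir1839 in the first class, Mir3102 in the second, Mir5099 in the third, Mir6236 in the fourth and Mir8112 in the last.

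Most of the genes lie inside a host gene. Of the 640, 485 (75.8%) overlap a gene on the same strand, with 152 in an exon of at least 1 transcript and 333 in introns only. A further 58 lie only opposite a gene, and 97 lie between genes. Of the detected genes, 35 of 44 (79.5%) have a same-strand host and 31 a protein-coding one. The share detected was 9.21% in exons, 6.31% in introns, 5.17% opposite a gene and 6.19% between genes. Of the lower-numbered genes, 324 of 525 (61.7%) have a same-strand host.

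**Figure D3:**
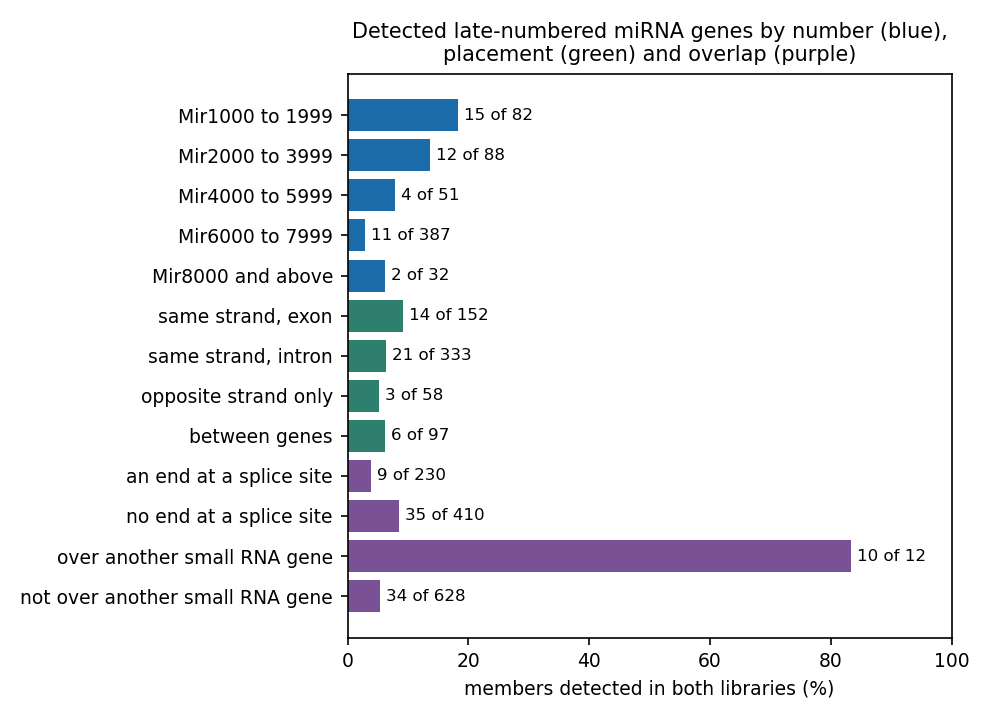
Percent of late-numbered genes detected in both libraries (horizontal axis) by number class, placement and overlap, with the counts of genes beside each bar. The bar for genes over another small RNA gene stands at 83.3%, and every other class lies at 18.3% or below.

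In exons of coding genes, Mir1306 was the highest (chr16:18284239-18284317, minus strand). It lies in a coding exon of Dgcr8, the Drosha partner that processes miRNA hairpins. It had 628 and 196 counts, or 159 and 116 CPM (mean 137 ± 29.9, SD, n = 2), and was higher in replicate 1. Mir1249 lies in a noncoding exon of 5031439G07Rik and had 247 and 97 counts (62.3 and 57.5 CPM). Mir5113, in the 3′ UTR of Tnrc6b, a gene of the miRNA silencing complex, had 77 and 26 counts. Mir3064 in Ddx5, an RNA helicase gene that takes part in miRNA processing, had 38 and 21.

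Mir1247 (chr12:110278048-110278129, minus strand) lies in an exon of Dio3os, the noncoding RNA beside the thyroid hormone deiodinase gene Dio3. It lies at the Dio3 end of the Dlk1-Dio3 cluster but outside the window of chromosome 12 that was set aside, and so was kept. It had 97 and 113 counts, or 24.5 and 67.0 CPM, and was higher in replicate 2 although that library was smaller.

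In introns, Mir1198 in Gripap1, an endosomal trafficking gene, had 173 and 126 counts (43.7 and 74.7 CPM). Mir3099 in the paternally expressed gene Usp29 had 192 and 78 counts (48.5 and 46.2 CPM), nearly equal levels. Mir3074-1 in Fancc, a Fanconi anaemia DNA repair gene, lies opposite Mir24-1 and had 104 and 34 counts, against 169 and 95 for Mir24-1. Both genes were at 0 in the deposited either-strand column, so their values rest on the strand column. The other late-numbered genes with a well-counted partner on the other strand were low: Mir3065 had 6 and 2 counts beside 698 and 512 for Mir338, Mir3107 had 1 and 1 beside 49 and 33 for Mir486, and Mir3074-2 had 0 and 0 beside 821 and 243 for Mir24-2.

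Between genes, Mir5099 (chr12:36816205-36816278, plus strand) was the highest and the second of all late-numbered genes, with 1220 and 609 counts, or 308 and 361 CPM (mean 334 ± 37.5, SD, n = 2). Mir6236 (chr9:110281287-110281409, plus strand) had 179 and 176 counts, or 45.2 and 104 CPM. A run of 20 bases of its precursor recurs in annotated transcripts of 6 other genes, and for Mir6240 (33 and 41 counts) in 3 others. Mir8112 lies opposite Smyd1, a muscle methyltransferase gene, and had 88 and 33 counts. Its precursor shares a 20-base run with transcripts of 57 other genes. Such runs were found in 6 of the 20 highest genes, in 8 of the 44 detected genes and in 87 of all 640. Mir1839 and Mir1983 were among these, each with a run in transcripts of 1 other gene.

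The precursors of late-numbered genes had a median length of 74 bases and a median GC content of 53.7%, against 84 bases and 46.2% for genes under 1000 or let-7. The detected late-numbered genes had medians of 84 bases and 53.6%. The folding energy of the precursor, computed with RNAfold, had a median of -38.8 kcal/mol per 100 bases in all late-numbered genes and -42.3 in the detected ones, against -41.9 and -43.3 in the lower-numbered genes. The quartiles were -47.6 and -36.1 in the detected late-numbered genes and -45.4 and -32.5 in the 596 not detected, so the ranges overlap.

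The levels of most detected late-numbered genes were close in the 2 libraries. Of the 44 detected genes, 36 had levels within 2-fold in the 2 libraries. The same share was not computed for the other detected miRNA genes, so whether it is particular to the set was not tested. Across these 44 genes Pearson's r of the log2 levels was 0.94 and Spearman's coefficient was 0.83, as a description over genes that share both libraries and were all required to be present in each. The median log2 ratio over the 78 late-numbered genes that reached 10 counts in a library was -0.07, against -0.05 over all 404 such miRNA genes, and the median size of the ratio without its sign was 0.50 in both. The other 562 late-numbered genes had too few counts for a test.

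A two-sided exact binomial test compared each gene's counts with the ratio of the library totals, with Benjamini-Hochberg adjustment over all 404 genes. A gene was called at an adjusted p under 0.05 and a log2 ratio, on CPM + 0.5, over 1 or under -1. It compares these 2 libraries, not conditions. Called were 13 of the 78 late-numbered genes (16.7%), against 18.3% of all genes tested. In replicate 2, 8 were higher and 5 lower, against 9.65% higher and 8.66% lower of all genes tested. The late-numbered share was the lower one in each setting tried, and the size of the gap depended on the setting. Late-numbered genes had lower levels than the other genes, and the part of level in these shares was not tested. Among tested genes with a mean under 100 CPM, 17.4% of 69 late-numbered genes were called. For genes under 1000 or let-7 below that level it was 22.5% of 111. With CPM + 5 in place of CPM + 0.5, 6 of 78 (7.69%) were called, against 14.1% of all genes, and these were Mir6236, Mir1247, Mir6240, Mir3105, Mir5126 and Mir1843b. At a log2 limit of 0.58, 15 of 78 (19.2%) were called, against 32.7% of all genes. With no count minimum it was 14 of 323 (4.33%), against 9.91%. With scaling by the trimmed mean of edgeR (TMM) or by DESeq2 it was 14 of 78 (17.9%), against 19.6%, and in the either-strand column 13 of 78 (16.7%), against 18.9%.

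Mir1843b, whose counts are uncertain because of the run it shares with Mir1843a, had the smallest adjusted p of the 5 lower genes. Replicate 1 exceeded replicate 2 by 2.58-fold (95% exact interval 2.13 to 3.13, log2 ratio -1.36, adjusted p = 3.9e-27 by the exact test). Mir1843a was also higher there, by 1.46-fold (1.27 to 1.69), which is under the 2-fold limit of the call. The other lower genes were Mir3066 in Nol10 (43 and 5 counts), Mir1298 in the serotonin receptor gene Htr2c (27 and 2 counts, 5.75-fold with an interval of 1.44 to 49.9), Mir6939 in Akt1 (15 and 0) and Mir6971 in Skiv2l (12 and 0). For these last 2 genes the exact 95% lower limits of the fold of replicate 1 over replicate 2 were 1.53 for Mir6939 and 1.18 for Mir6971.

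Of the 8 genes higher in replicate 2, Mir1247 was 2.74-fold higher (2.07 to 3.63, log2 ratio 1.43, adjusted p = 2.0e-12 by the exact test) and Mir6236 was 2.31-fold higher (1.86 to 2.86, log2 ratio 1.20, adjusted p = 2.5e-14 by the exact test). Mir6240 was 2.92-fold higher (1.80 to 4.76), and Mir3105, in an intron of the synaptic scaffold gene Shank2, 3.65-fold (1.95 to 7.01) with 18 and 28 counts. The others were Mir5126 (8 and 20 counts), Mir6538 (16 and 20), Mir7219 (18 and 19) and Mir3109 (9 and 12). All but Mir6236, Mir1247 and Mir6240 had under 30 counts in each library.

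**Figure D4:**
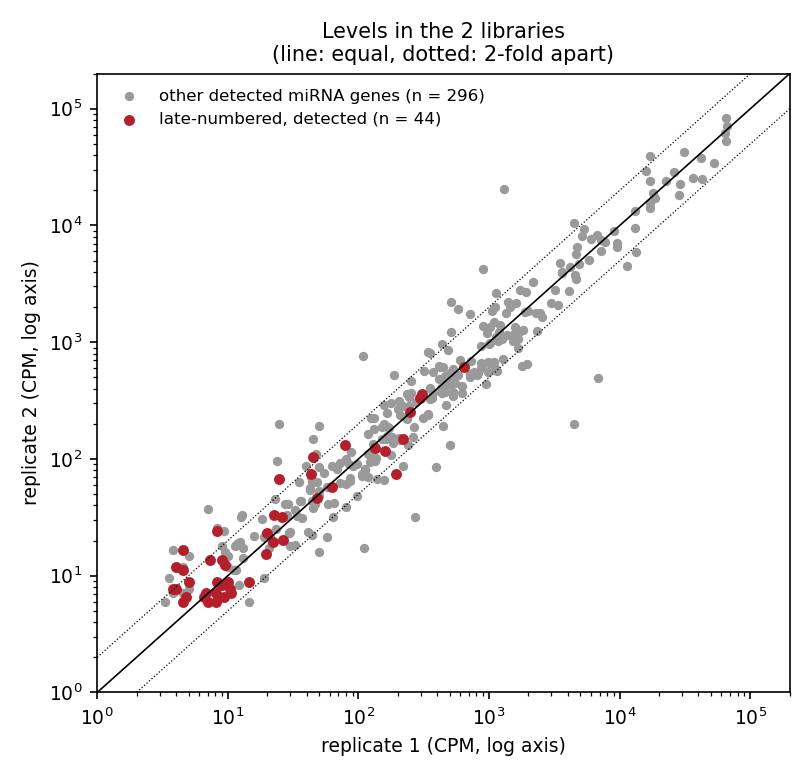
Levels in replicate 1 (horizontal) and replicate 2 (vertical) on log axes of CPM for the 44 detected late-numbered genes (red) and 296 other detected genes (grey), with equality as a line and 2-fold as dotted lines. The red points lie below 1000 CPM, and 36 of 44 fall between the dotted lines.

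A list of 14 mouse symbols whose number is also used for a human miRNA was named from background knowledge. It was not checked for completeness, so other such genes may be missing from the values below. Of the 14, 13 were late-numbered genes in the tables and 5 were detected: Mir1306, Mir1249, Mir1247, Mir3074-1 and Mir1224. The 13 genes summed to 289 CPM in replicate 1 and 277 CPM in replicate 2. Of the 6 with enough counts for the test, 1 was called higher (Mir1247) and 1 lower (Mir1298), where 9.65% of all genes tested were higher and 8.66% lower.

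Among the genes kept, those next to the edge of the number rule had few counts. Just above it, Mir1187 and Mir1190 had 0 counts in both libraries and Mir1191 had 1 and 6. Just below it, Mir883a and Mir883b had 0 in both and Mir882 had 1 and 0. Mir1188, numbered between Mir1187 and Mir1190, had 144 and 74 counts and was set aside by position. Of the 9 late-numbered genes set aside in this way, 6 were detected, and the highest, Mir1193, had 2474 and 704 counts (624 and 417 CPM), which would place it second to Mir1839. The annotation also writes 4 genes as mmu-mir with a number over 1000, which the rule does not take. One of them, mmu-mir-3535 in a noncoding exon of the nucleolin gene Ncl and over another small RNA gene, had 2019 and 3758 counts, or 510 and 2228 CPM. Its mean level of 1369 CPM exceeds that of every late-numbered gene included, and replicate 2 exceeded replicate 1 by 4.37-fold (4.14 to 4.62). The other 3 had at most 4 counts in a library.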

How the data were processed

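The deposited tables held whole-number counts per precursor gene, with 3 count columns and 4 summary rows, made by the authors on mm10 with GENCODE release M21, per the file headers. The aligner and its filters are not given in the sources used here. The third column was used and is called the sense strand, since the file lists name none and it holds more counts than the other strand column. Reads aligned to more than 1 locus (27.0% and 25.7% of reads) and the other summary rows stayed out of totals, and sense-strand miRNA counts made up 33.7% and 25.7% of 11770895 and 6557080 reads.

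Symbols and hosts came from GENCODE M21. An exon placement means overlap with an exon of any transcript of the host, and the gene may be intronic in others. Hairpin coordinates in RefSeq (GRCm38.p6) were the same in all 552 genes with an entry. Named were the 20 genes with the highest mean CPM, up to 5 called genes of at least 10 CPM in each direction, the 3 genes on each side of the number limit, and the highest gene of each placement and number class. Other genes named were chosen after their values were seen. Members and lists were chosen with earlier results of these data known. Folding energies and runs in other transcripts were added after seeing the data.

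The exact binomial test was tested on simulated counts that varied between libraries by counting error and set folds only. That cannot show how the test behaves where libraries vary more. Reads are not independent molecules, so p-values, 95% intervals and limits of 3 counts cover counting error only. Alternatives were other detection limits, the either-strand column, TMM scaling (edgeR 4.0.16), DESeq2 1.42.0 size factors, other pseudocounts and folds, and each library left out. The software was scipy 1.17.1, pandas 2.3.3 and numpy 2.4.6 under Python 3.11.15, R 4.3.3, and RNAfold 2.7.2 for folding.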

Additional observations from a re-analysis of the deposited data

How the results depend on the processing

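The number of detected late-numbered genes followed the limit on counts. It was 192 with at least 1 count in both libraries, 16 with at least 50, and 93 with 10 in the sum of both, against 44 as reported. With each library left out in turn it ran from 46 to 76, the higher number from replicate 1 alone, which is the deeper library. The share of miRNA counts, 0.312% as reported, was 0.354% in the either-strand column, 0.285% for detected genes, 0.250% without Mir1839, 0.276% without genes that share a 20-base run with another precursor, and 0.383% with the genes set aside by position. Per all reads of the library it was 0.0926%. Chosen after seeing the data, adding the genes spelled mmu-mir gave 0.449%, and leaving out genes over another small RNA gave 0.166%. With CPM + 5, 6 genes were called in place of 13. The numbers called under the other settings ran from 13 to 15. Of the levels of named genes, 10 moved by more than their SD, each in the either-strand column, and 36 did not, and for the tested genes named by the rule, all 65 log2 ratios recomputed with CPM + 5, TMM scaling or the either-strand column kept their side of the limit of 1. Of the called genes outside that rule, Mir5126 stayed past the limit with CPM + 5, while Mir1298, Mir3066, Mir3109, Mir6538, Mir6939, Mir6971 and Mir7219 fell under it. No paired analysis was possible because there is 1 group. Depth limits the low genes: 1 count is 0.593 CPM in replicate 2.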
